A study of Homo sapiens with 12 samples.

Results

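Homeobox genes of 12 families (HOXB, PBX, MEIS, IRX, sine oculis, PAX, DLX, MSX, OTX, LHX, PITX and POU) encode transcription factors that give cells an axial or regional identity. The members were all gene symbols of these families in the deposited files, apart from 6 symbols that the selection left out, which gave 40 of 17096 listed genes. Each group was made of the human embryonic stem line H7, differentiated towards cardiomyocytes, either wild type or labelled E2A-/- (knockout of E2A, an older name of TCF3), at days 3, 7 and 15. Cells of day 3 are labelled cardiac mesoderm and those of days 7 and 15 cardiomyocytes. Each of the 6 groups has 2 libraries, the labels name neither the edit nor the number of clones, and nothing says that replicates came from separate cultures. P-values thus rest on the spread among these libraries alone, and that spread may be technical. RNA of bulk cultures cannot tell fewer cells of a type from less RNA per cell.

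HOX proteins bind DNA through a homeodomain, act along the head-to-tail axis, and are switched on in the order of their place in a cluster. PBX and MEIS proteins, of the TALE class, bind DNA together with HOX proteins and raise their specificity. Iroquois (IRX), sine oculis, PAX, DLX, MSX, OTX, LHX and PITX genes mark regions of the ectoderm and mesoderm, and several act in the heart, such as MSX1 and MSX2 in the cushions and outflow tract.

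Values are read as FPKM, a level per gene length and library size, because they are decimals whose sums differ between libraries. Neither the labels nor the headers name the unit. Differences between groups are given on the log2(FPKM + 1) scale, on which changes of low genes come out too small, with the SE of limma and a p-value adjusted over all 16295 genes tested. All 17096 genes were above 0 in all 12 libraries, and the sum of FPKM per library was between 577720 and 734960. The depth in reads is unknown, since at best 50% to 80% of low values stood within 0.1 of a whole fragment count. TCF3, the targeted gene, stood at 149 to 180 FPKM in the wild type and at 146 to 148 FPKM in the libraries labelled knockout at day 3, at 135 to 138 and 172 to 180 FPKM at day 7, and at 74.4 to 98.2 and 108 to 170 FPKM at day 15. The differences of -0.15 and 0.36 at days 3 and 7 did not pass (adjusted p = 0.618 and 0.159), and TCF3 was higher by 0.66 at day 15 (adjusted p = 0.0234). No fall of TCF3 passed, so the groups are called libraries labelled knockout, and each direction below rests on those labels. Mitochondrially encoded transcripts held 15.7% to 18.8% of summed FPKM at day 3, 8.14% to 8.55% in the wild type against 18.5% to 20.2% at day 7, and 26.1% to 26.2% against 13.9% to 14.3% at day 15. The 8 cardiomyocyte markers, defining for the label of days 7 and 15, summed to 6548 to 6562 FPKM in the wild type and 1121 to 1238 FPKM in the libraries labelled knockout at day 7, and to 9289 to 10185 against 3231 to 3970 FPKM at day 15. All 8 were lower at day 7 (against 19.9% of all genes tested). At day 15 MYH7, ACTN2, TNNT2 and MYL7 were lower (against 16.2%) and MYH6 was higher (against 18.9%), and NKX2-5, TNNI1 and RYR2 did not pass. Of that day's sum, MYL7 alone made up 5961 and 6584 FPKM in wild-type libraries and 1350 and 1204 FPKM in those labelled knockout.

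More members were lower than higher at day 3, and most of those called at day 15 were higher. At day 3, 13 of the 38 members tested passed (34.2%, against 23.6% of all genes tested), and 9 were lower in the libraries labelled knockout (23.7%, against 14.1% of all genes tested) and 4 were higher (10.5%, against 9.51%). At day 7, 11 passed (28.9%, against 42.0%), of which 6 were lower (15.8%, against 19.9%) and 5 higher (13.2%, against 22.1%). By day 15, 22 passed (57.9%, against 35.1%), of which 21 were higher (55.3%, against 18.9%) and 1 was lower (2.63%, against 16.2%). The median change of the members tested was -0.20, -0.01 and 0.71 at the 3 days, beside -0.01, 0.06 and 0.03 over all genes tested. The filter of 1 FPKM in at least 2 libraries left out LHX4 and POU2F3, of which LHX4 reached at most 0.905 FPKM and POU2F3 1.34 FPKM in any library. HOXB6, PAX9 and POU3F2 passed the filter through 1 group each. PAX2 passed it through libraries labelled knockout alone, and DLX2 through day 3 wild-type and day 15 labelled knockout libraries alone. The 2 libraries of one group stood wholly above those of the other, in either direction, for 24 members at day 3 (against 65.7% of all genes tested), 28 at day 7 (against 74.6%) and 29 at day 15 (against 64.7%). Of the 24 at day 3, 9 were higher (against 30.7% of all genes tested) and 15 lower (against 35.0%), and of the 28 at day 7, 14 were higher (against 39.8%) and 14 lower (against 34.8%). Of the 29 at day 15, 25 were higher (against 34.1%) and 4 lower (against 30.6%). Without the filter, all 40 members gave 22 higher and 1 lower at day 15. Scaled to the sum of nuclear genes, which moved the median of all genes at day 7 to 0.22, 10 members were higher and 3 lower at that day, while at day 15 the split was 22 and 1. Among all genes called, the same scaling moved the share of higher calls from 40.3% to 62.3% at day 3 and from 52.6% to 68.2% at day 7. No called change of a member described below turned its direction under either scaling.

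**Figure D1:**
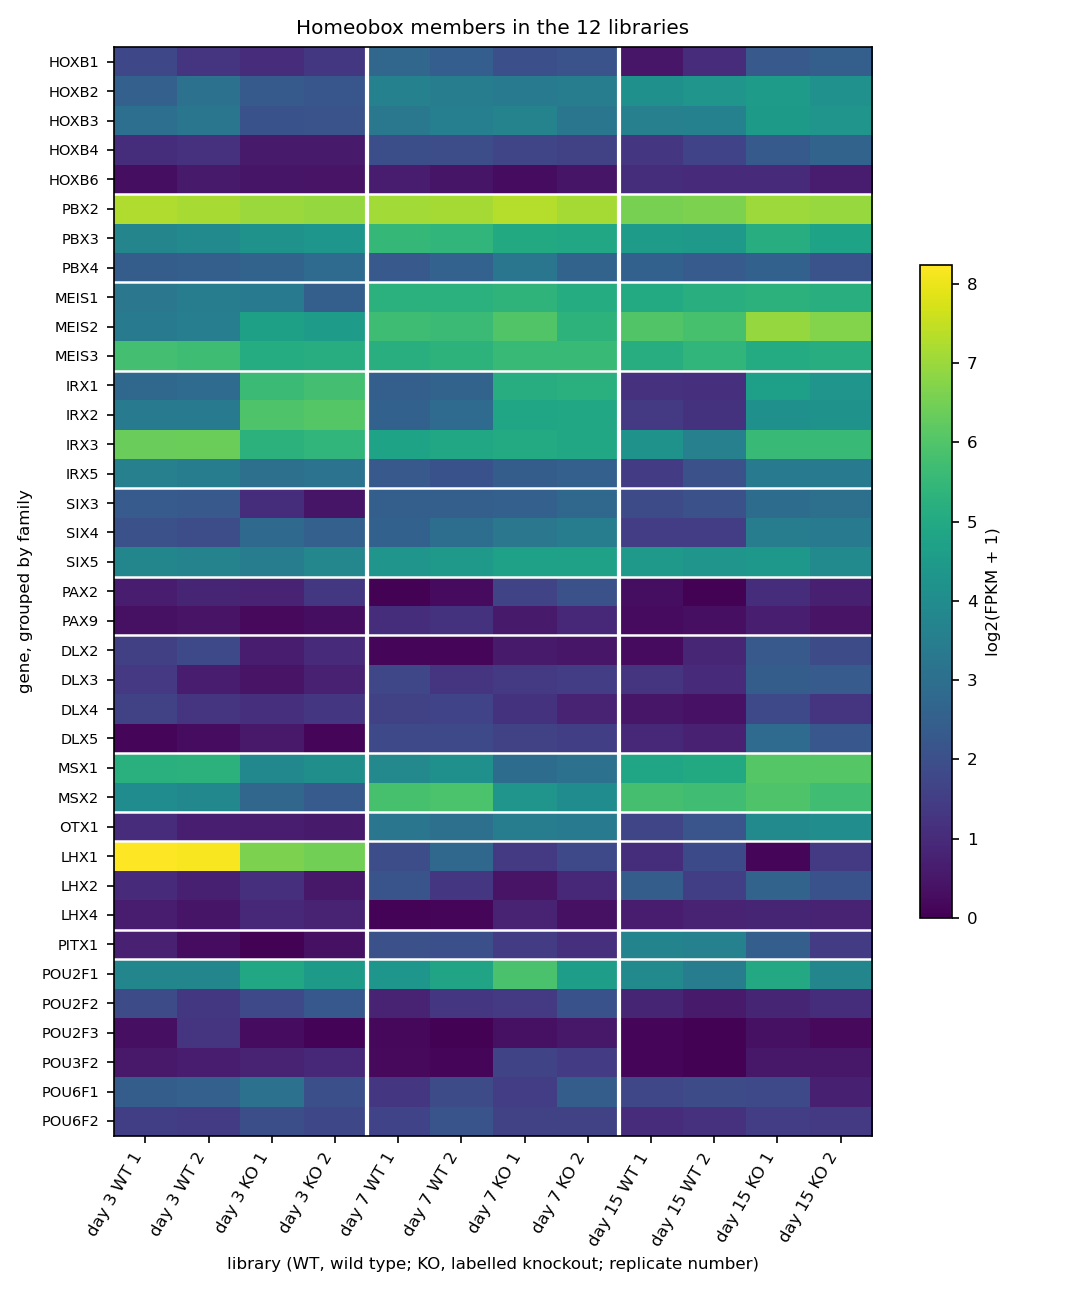
Level of 37 members (rows, grouped by family between white lines) in the 12 libraries (columns, WT for wild type and KO for labelled knockout, with the replicate number), as log2(FPKM + 1). IRX1 and IRX2 are brighter in every library labelled knockout than in the wild type of the same day, and the rows of DLX2 to DLX5, SIX3, SIX4, HOXB1, HOXB3 and HOXB4 are brighter in the last pair of columns than in the wild type beside it.

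IRX1, IRX2, SIX4 and MSX1 were the 4 of 38 members tested that passed at all 3 days (10.5%, against 6.91% of all genes tested). Of the others, 10 passed at 2 days (26.3%, against 21.5%), 14 at 1 day (36.8%, against 37.0%) and 10 at none (26.3%, against 34.6%). In 8 members the called changes had opposite signs at different days (21.1%, against 8.89% of all genes tested). Of these, 6 were lower at day 3 and higher at day 15 (15.8%, against 2.39%), with DLX2, HOXB3, IRX3, MSX1 and SIX3 among them. DLX2 passed the filter only through the 2 groups that are high in this pattern, so it was tested because of them. The comparison of effects between days 15 and 7 called 22 members (57.9%, against 31.7%), 20 of them upward (52.6%, against 16.6% of all genes tested) and 2 downward (5.26%, against 15.2%). Scaled to the sum of nuclear genes, these counts were 16 and 4, and the share of upward calls among all genes moved from 52.2% to 37.7%. Between days 7 and 3, 10 effects differed (26.3%, against 20.2%), of which 7 differed upward (18.4%, against 11.3%) and 3 downward (7.89%, against 8.90%).

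**Figure D2:**
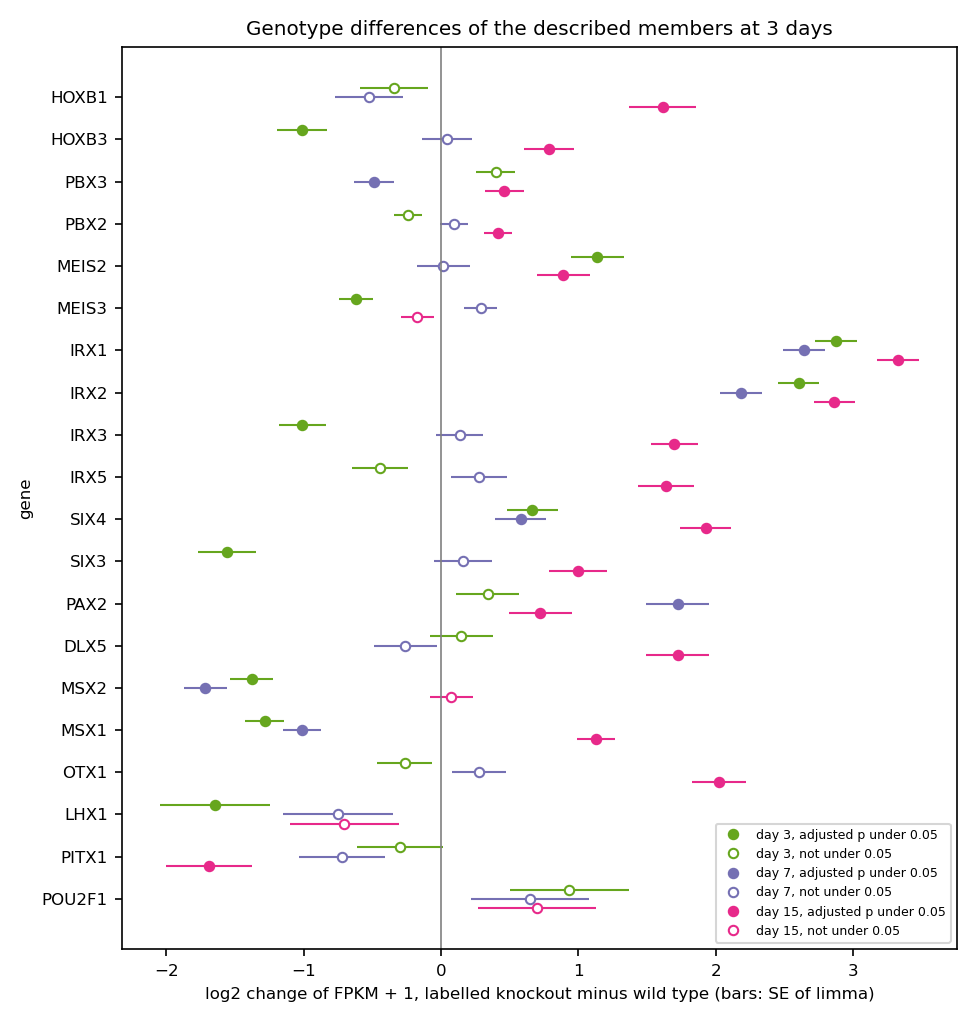
Log2 change of FPKM + 1, labelled knockout minus wild type (x axis), for the 20 members described with the value of every library (y axis), with 1 point a day and bars of 1 SE of limma. Filled points have an adjusted p under 0.05. Most day 15 points lie right of 0 (up to 3.33 for IRX1), while most called points of day 3 lie left of it.

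Iroquois genes lie in clusters on chromosomes 5 and 16. All 4 members were higher in the libraries labelled knockout at day 15 (against 18.9% of all genes tested). IRX1 and IRX2 were higher at days 3 and 7 too, while IRX3 was lower at day 3. IRX1 (chr5:3596054-3601403, plus strand) and IRX2 (chr5:2745845-2751662, minus strand) are neighbours 844 kb apart, in the annotation of GENCODE release 29 on GRCh38. IRX3 (chr16:54283304-54286763, minus strand) and IRX5 (chr16:54930862-54934485, plus strand) are 644 kb apart. The proteins are TALE-class regulators that act in neural patterning and in the ventricles, where IRX3 and IRX5 are known for the conduction system and the gradient of repolarization.

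IRX1 gave 5.801 and 6.36 FPKM at day 3, 4.64 and 5.11 FPKM at day 7 and 1.25 and 1.19 FPKM at day 15 in the wild type. IRX1 in the libraries labelled knockout gave 48.2 and 53.7 FPKM, then 34.4 and 36.9 FPKM, then 24.3 and 18.6 FPKM. All 6 libraries labelled knockout were above all 6 wild-type libraries. The difference was 2.87 (SE 0.15, adjusted p = 3.59e-06) at day 3, 2.64 (SE 0.15, adjusted p = 1.89e-06) at day 7 and 3.33 (SE 0.15, adjusted p = 7.41e-07) at day 15. As a ratio of mean FPKM this was 8.38-fold, 7.32-fold and 17.6-fold. IRX2 gave 9.46 and 9.72 FPKM at day 3, 4.87 and 6.43 FPKM at day 7 and 1.63 and 1.29 FPKM at day 15 in the wild type. IRX2 in the libraries labelled knockout gave 61.4 and 65.4 FPKM, then 28.02 and 30.02 FPKM, then 16.4 and 17.3 FPKM. Again no library labelled knockout fell within the wild-type range of any day. IRX2 was higher by 2.60 (SE 0.15, adjusted p = 4.68e-06), 2.18 (SE 0.15, adjusted p = 5.07e-06) and 2.86 (SE 0.15, adjusted p = 1.39e-06), ratios of 6.61-fold, 5.13-fold and 11.5-fold. Both genes fell late in both genotypes. In the wild type IRX1 fell by 1.40 and IRX2 by 1.43 between days 7 and 15, and in the libraries labelled knockout by 0.72 and 0.75. At day 15 the libraries labelled knockout still held more IRX1 and IRX2 than the wild type did at day 3.

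IRX1, IRX2 and SIX4 (described below) were higher at all 3 days. The promoters of the neighbours IRX1 and IRX2, the pair of these with E-box matches, are shown from 250 bases before to 50 bases after the start of transcription in RefSeq (GRCh38.p14). E proteins such as TCF3 bind the E-box, CANNTG, on either strand, and the capitals mark its form CAGCTG. IRX1 is at chr5:3595582-3595881, plus strand, and IRX2 at chr5:2751628-2751927, minus strand, each 5′ to 3′.
IRX1: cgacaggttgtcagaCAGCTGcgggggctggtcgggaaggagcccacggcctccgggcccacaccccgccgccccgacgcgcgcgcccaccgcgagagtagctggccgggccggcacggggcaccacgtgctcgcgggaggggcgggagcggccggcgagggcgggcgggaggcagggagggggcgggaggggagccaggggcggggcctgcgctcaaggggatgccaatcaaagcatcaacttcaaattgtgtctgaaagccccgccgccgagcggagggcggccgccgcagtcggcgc
IRX2: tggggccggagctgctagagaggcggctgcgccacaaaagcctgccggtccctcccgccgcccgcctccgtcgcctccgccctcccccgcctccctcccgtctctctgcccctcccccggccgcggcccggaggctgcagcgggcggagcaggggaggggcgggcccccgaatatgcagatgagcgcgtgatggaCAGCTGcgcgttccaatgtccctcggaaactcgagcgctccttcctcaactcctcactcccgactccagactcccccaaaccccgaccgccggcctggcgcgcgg
Each window holds 1 such match, which starts at position -235 from the start of transcription in IRX1 and at -55 in IRX2. In RefSeq's table of 35116 windows of this length, 17.9% hold that form on either strand. The form CAGGTG, searched on both strands too, is in 20.6%, and 34.5% hold one or the other. Of the 23 members matched there, 4 had a window with the first form, 4 with the second and 7 with either. The wider E-box CANNTG was found in windows of 10 of these 23 members and in 68.7% of all windows. The SIX4 window holds 0 matches of any of the 3 forms. These are matches of letters, and binding was not measured.

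IRX3 gave 81.7 and 82.6 FPKM at day 3, 26.5 and 29.1 FPKM at day 7 and 17.3 and 11.03 FPKM at day 15 in the wild type. IRX3 in the libraries labelled knockout gave 38.4 and 42.2 FPKM, then 32.2 and 29.1 FPKM, then 47.2 and 47.1 FPKM. The groups stood apart at day 3, with the libraries labelled knockout lower, nearly touched at day 7, and stood apart the other way at day 15. IRX3 was lower by 1.01 at day 3 (SE 0.17, adjusted p = 0.00223). At day 7 the difference was 0.14 (SE 0.17, adjusted p = 0.551), and day 15 libraries labelled knockout were higher by 1.70 (SE 0.17, adjusted p = 6.59e-05). In the wild type it fell at each step, by 1.53 and 0.96, while in the libraries labelled knockout it rose by 0.60 between days 7 and 15. IRX5 gave 11.1 and 10.2 FPKM at day 3, 3.95 and 3.203 FPKM at day 7 and 1.68 and 3.13 FPKM at day 15 in the wild type. IRX5 in the libraries labelled knockout gave 7.28 and 7.87 FPKM, then 4.35 and 4.73 FPKM, then 9.21 and 9.53 FPKM. Its order followed that of IRX3 at lower levels, though the differences of -0.44 (SE 0.21, adjusted p = 0.147) at day 3 and 0.28 (SE 0.21, adjusted p = 0.303) at day 7 did not pass. At day 15 IRX5 was higher by 1.64 (SE 0.21, adjusted p = 0.00024), a ratio of 3.89-fold. Genes on the other strand overlap IRX1, IRX3, LHX1, LHX2, MEIS1, MEIS2, PAX9, PBX4, PITX1 and SIX5 in the annotation, and no source used here gives the strand setting of the counting, so their reads cannot be told apart.

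**Figure D3:**
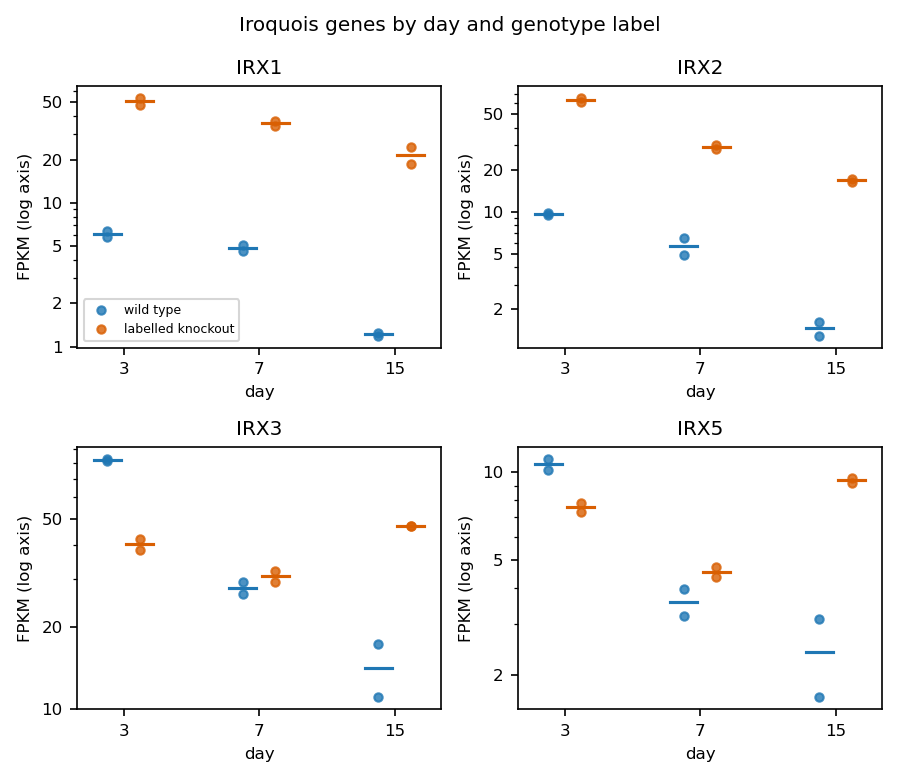
FPKM (y axes, log scale) of IRX1, IRX2, IRX3 and IRX5 by day (x axes) in wild-type (blue) and labelled knockout (orange) libraries. Points are libraries and lines are means of 2. IRX1 and IRX2 are higher in orange at every day, and IRX3 and IRX5 change order between days 3 and 15.

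Sine oculis homeobox genes encode factors that work with EYA cofactors and PAX factors in placodes, muscle and kidney. SIX4 gave 3.16 and 2.87 FPKM at day 3, 4.95 and 6.95 FPKM at day 7 and 1.83 and 1.799 FPKM at day 15 in the wild type. SIX4 in the libraries labelled knockout gave 5.97 and 4.82 FPKM, then 8.58 and 10.01 FPKM, then 10.2 and 9.28 FPKM. The libraries labelled knockout were above the wild type at all 3 days, by a wider margin at day 15. SIX4 (chr14:60709528-60724348, minus strand) was higher by 1.93 (SE 0.19, adjusted p = 5.04e-05) at day 15, a ratio of 5.36-fold. Its smaller differences at day 3, 0.67 (SE 0.19, adjusted p = 0.0257), and day 7, 0.58 (SE 0.19, adjusted p = 0.0285), were lost when each day was fitted alone (adjusted p = 0.051 and 0.062). They were also lost without day 3 labelled knockout replicate 1 (adjusted p = 0.158) and day 3 wild-type replicates 1 (adjusted p = 0.083) and 2 (adjusted p = 0.129), and without day 7 wild-type replicate 1 (adjusted p = 0.226) and day 7 labelled knockout replicates 1 (adjusted p = 0.0511) and 2 (adjusted p = 0.145). The wild type lost SIX4 between days 7 and 15 (-1.29), whereas the libraries labelled knockout differed by 0.06 (SE 0.19, adjusted p = 0.832).

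SIX3 gave 4.12 and 3.95 FPKM at day 3, 4.67 and 4.58 FPKM at day 7 and 2.76 and 3.15 FPKM at day 15 in the wild type. SIX3 in the libraries labelled knockout gave 1.12 and 0.385 FPKM, then 4.73 and 5.901 FPKM, then 6.47 and 7.32 FPKM. SIX3, a factor of the forebrain and eye, was near 1 FPKM or under it in the day 3 libraries labelled knockout and above the wild type at day 15. It was lower by 1.56 at day 3 (adjusted p = 0.000674), and its day 15 difference was 0.996 (SE 0.21, adjusted p = 0.00483). SIX5, a widely expressed member, stood between 10.4 and 25.3 FPKM and passed at no day. Of the partners of these and of PAX factors in a list (the EYA genes, DACH1 and DACH2), 4 were tested. At day 15, 3 of them were higher (against 18.9% of all genes tested): DACH1 by 2.23, EYA2 by 1.73 and EYA1 by 1.54. At day 3, EYA1 and DACH1 were lower, by 0.76 and 0.80, and at day 7 DACH1 was higher by 1.498 and EYA2 lower by 0.59. EYA1 at day 15 stood at 6.82 and 5.58 FPKM in the libraries labelled knockout and at 1.77 and 1.18 FPKM in the wild type, so the groups did not overlap.

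PAX genes combine a paired domain with, in most, a homeodomain. PAX2 gave 0.566 and 0.799 FPKM at day 3, 0.0255 and 0.176 FPKM at day 7 and 0.231 and 0.0388 FPKM at day 15 in the wild type. PAX2 in the libraries labelled knockout gave 0.777 and 1.54 FPKM, then 2.22 and 3.09 FPKM, then 1.12 and 0.648 FPKM. PAX2, of kidney, ear and midbrain, thus stayed under 4 FPKM, and both day 7 libraries labelled knockout were above all wild-type libraries. Its change at day 7 was 1.72 (SE 0.23, adjusted p = 0.000259), and that at day 15 was 0.72 (SE 0.23, adjusted p = 0.0326). PAX2 reached 1 FPKM in libraries labelled knockout alone, so it was tested only through the genotype in which it was higher. The call at day 15 ended when day 15 was fitted alone (adjusted p = 0.0582), without wild-type replicates 1 (adjusted p = 0.0597) and 2 (adjusted p = 0.16), and without labelled knockout replicate 1 (adjusted p = 0.163). PAX9 reached at most 1.29 FPKM and passed in no comparison of the genotypes.

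MSX genes encode repressors that respond to BMP signals in limb, neural crest and heart cushions. MSX1 gave 36.4 and 37.8 FPKM at day 3, 13.6 and 16.5 FPKM at day 7 and 28.5 and 31.2 FPKM at day 15 in the wild type. MSX1 in the libraries labelled knockout gave 13.4 and 16.04 FPKM, then 6.45 and 7.44 FPKM, then 66.01 and 66.7 FPKM. MSX1 (chr4:4859666-4863936, plus strand) was lower in the libraries labelled knockout at days 3 and 7 and higher at day 15, with no overlap at any day. The differences were -1.28 (SE 0.14, adjusted p = 0.000185), -1.01 (SE 0.14, adjusted p = 0.000319) and 1.13 (SE 0.14, adjusted p = 0.000231). Between days 7 and 15 it rose by 0.95 in the wild type and by 3.09 in the libraries labelled knockout, and the effects of these days differed by 2.14 (SE 0.20, adjusted p = 6.91e-05). MSX2 gave 15.03 and 13.5 FPKM at day 3, 56.4 and 58.7 FPKM at day 7 and 55.01 and 51.2 FPKM at day 15 in the wild type. MSX2 in the libraries labelled knockout gave 5.59 and 4.201 FPKM, then 18.6 and 15.2 FPKM, then 61.2 and 51.2 FPKM. MSX2 (chr5:174724533-174730893, plus strand) was lower at days 3 and 7 in the same way, but at day 15 the groups overlapped. It was lower by 1.38 (adjusted p = 0.000229) and 1.71 (adjusted p = 2.56e-05), and the day 15 difference, 0.08 (SE 0.16, adjusted p = 0.736), did not pass. Wild-type MSX2 rose by 1.94 to day 7, and the libraries labelled knockout rose by 1.61 and then by 1.68.

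DLX genes, of branchial arches, limb and forebrain, were low, and all 4 members were higher at day 15 (against 18.9% of all genes tested). DLX5 gave 0.111 and 0.1997 FPKM at day 3, 2.52 and 2.52 FPKM at day 7 and 0.888 and 0.704 FPKM at day 15 in the wild type. DLX5 in the libraries labelled knockout gave 0.473 and 0.111 FPKM, then 1.98 and 1.89 FPKM, then 6.44 and 3.72 FPKM. The 2 day 15 libraries labelled knockout were the highest of all 12. DLX5 (chr7:97020392-97024950, minus strand) was higher by 1.72 (SE 0.23, adjusted p = 0.000334), with no call at day 3 (0.15) or day 7 (-0.26). Log2 changes of the 4 members at day 15 ran from 1.10 to 1.72. At day 3 DLX2 alone was called, at -0.88, and at day 7 DLX4 alone, at -0.64. DLX2 was tested only through its day 3 wild-type and day 15 labelled knockout libraries, the groups where it was high. The others besides DLX5 (DLX2, DLX3 and DLX4) stood between 1.40 and 4.41 FPKM in the day 15 libraries labelled knockout and between 0.193 and 1.39 FPKM in the wild type. DLX3 and DLX4 are neighbours 15.1 kb apart on chromosome 17.

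OTX1 marks anterior regions, and the LIM homeobox genes (LHX) are described beside it. OTX1 gave 1.08 and 0.608 FPKM at day 3, 8.33 and 7.21 FPKM at day 7 and 2.32 and 3.5001 FPKM at day 15 in the wild type. OTX1 in the libraries labelled knockout gave 0.536 and 0.507 FPKM, then 9.904 and 9.32 FPKM, then 14.005 and 15.4 FPKM. OTX1 (chr2:63050057-63057836, plus strand), a factor of forebrain and sensory organs, rose between days 3 and 7 in both genotypes and then fell in the wild type by 1.18. Its difference at day 15 was 2.02 (SE 0.20, adjusted p = 5.75e-05), a ratio of 5.06-fold, and those of days 3 and 7 did not pass (-0.26 and 0.28). LHX1 gave 301 and 283 FPKM at day 3, 2.88 and 5.87 FPKM at day 7 and 1.13 and 2.65 FPKM at day 15 in the wild type. LHX1 in the libraries labelled knockout gave 96.5 and 88.9 FPKM, then 1.65 and 2.54 FPKM, then 0.111 and 1.63 FPKM. LHX1 (chr17:36936785-36944612, plus strand), a LIM factor of the streak, head organizer and kidney, was abundant at day 3 alone. It was lower at day 3 in both libraries labelled knockout, by 1.64 (SE 0.40, adjusted p = 0.0137), or 0.32 times the wild-type mean. That call ended without either wild-type replicate (adjusted p = 0.0731 without replicate 1 and adjusted p = 0.0608 without replicate 2), without either labelled knockout replicate (adjusted p = 0.0603 and adjusted p = 0.0665), and with a pseudocount of 0.1 (adjusted p = 0.146). The SE is shared by all groups, and the low values of LHX1 at day 15 differed widely between the replicates labelled knockout (0.111 and 1.63 FPKM). LHX2 stood between 0.363 and 5.18 FPKM and was lower at day 7 (-1.03, adjusted p = 0.0471). Of the 8 LIM cofactors tested, LDB1 and LDB2 were higher (against 18.9% of all genes tested) and LMO3 lower (against 16.2%) at day 15. At day 7, 4 were lower (against 19.9%) and 1 higher (against 22.1%).

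PITX1 was lower in the libraries labelled knockout at day 15. PITX1 gave 0.676 and 0.221 FPKM at day 3, 3.12 and 3.03 FPKM at day 7 and 12.03 and 11.2 FPKM at day 15 in the wild type. PITX1 in the libraries labelled knockout gave 0.0358 and 0.303 FPKM, then 1.74 and 1.22 FPKM, then 4.69 and 1.68 FPKM. PITX1 (chr5:135027735-135034813, minus strand), a hindlimb and pituitary factor, rose in the wild type at both steps, and both day 15 libraries labelled knockout were below it. At day 15 PITX1 was lower there by 1.69 (SE 0.31, adjusted p = 0.00228). In the annotation 2 genes on the other strand overlap PITX1, with the limit given for IRX1.

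**Figure D4:**
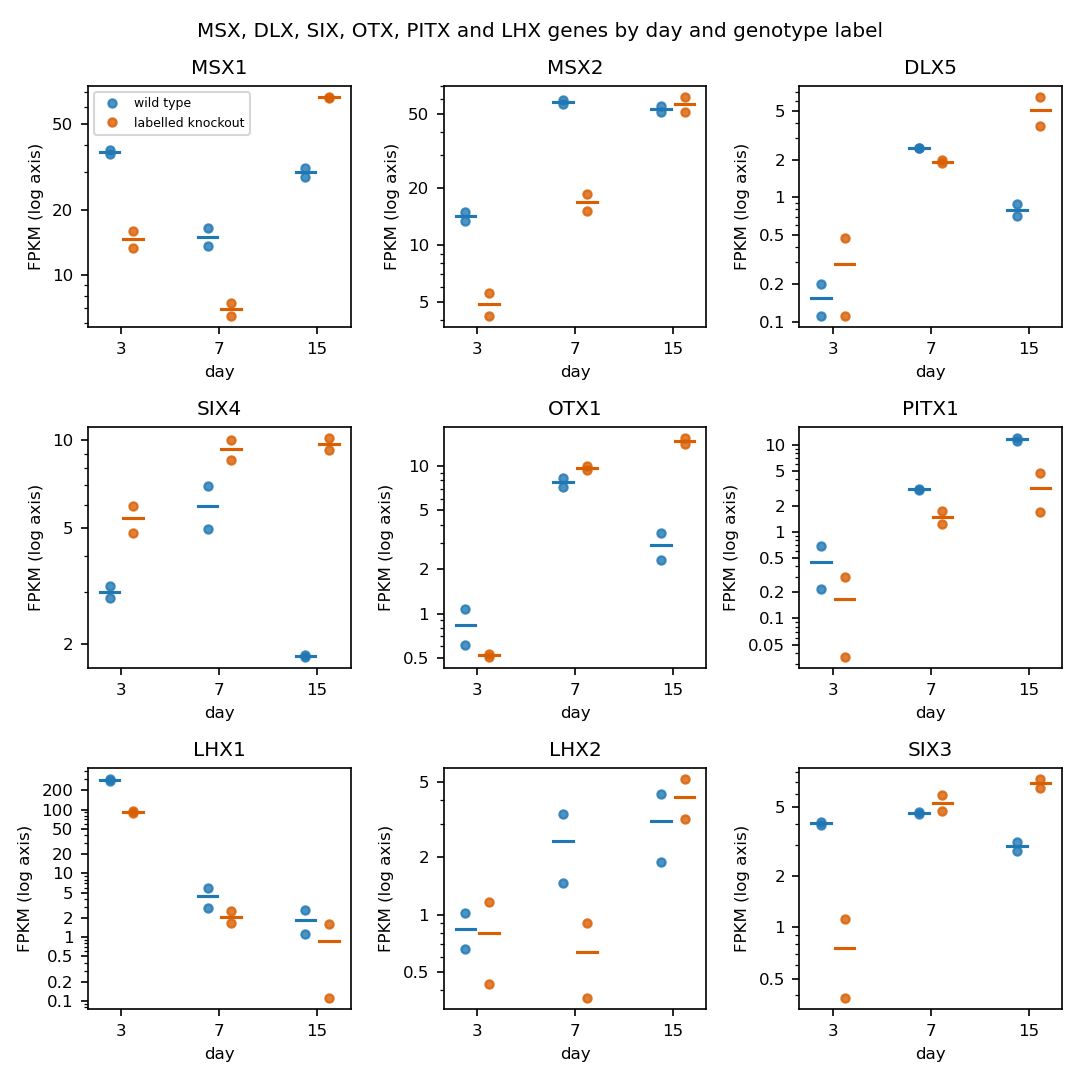
FPKM (y axes, log scale) of MSX1, MSX2, DLX5, SIX4, OTX1, PITX1, LHX1, LHX2 and SIX3 by day (x axes) in wild-type (blue) and labelled knockout (orange) libraries. Points are libraries and lines are means of 2. At day 15 MSX1, DLX5, SIX3, SIX4 and OTX1 are higher in orange and PITX1 is lower.

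Of the HOX clusters, HOXB1, HOXB2, HOXB3, HOXB4 and HOXB6 of the HOXB cluster on chromosome 17 were listed. The selection took HOXA, HOXC and HOXD symbols too, but the deposited files held none of them. HOXB1 gave 2.45 and 1.396 FPKM at day 3, 5.59 and 4.496 FPKM at day 7 and 0.419 and 1.09 FPKM at day 15 in the wild type. HOXB1 in the libraries labelled knockout gave 1.05 and 1.51 FPKM, then 3.04 and 3.34 FPKM, then 3.93 and 4.62 FPKM. HOXB1 (chr17:48528526-48531001, minus strand), a hindbrain and second heart field gene at the early end of the cluster, peaked at day 7 in the wild type and then fell by 1.81. The libraries labelled knockout differed by 0.33 (SE 0.24, adjusted p = 0.34) between days 7 and 15, and at day 15 they were higher by 1.61 (SE 0.24, adjusted p = 0.000691). HOXB3 gave 7.01 and 8.39 FPKM at day 3, 8.9004 and 10.7 FPKM at day 7 and 11.2 and 11.2 FPKM at day 15 in the wild type. HOXB3 in the libraries labelled knockout gave 3.26 and 3.35 FPKM, then 11.9 and 8.52 FPKM, then 21.7 and 18.4 FPKM. HOXB3 (chr17:48548870-48604912, minus strand) was lower in both libraries labelled knockout at day 3, overlapped at day 7 and was higher at day 15. Its changes were -1.01 (SE 0.18, adjusted p = 0.00307) at day 3 and 0.79 (SE 0.18, adjusted p = 0.00716) at day 15, and that of day 7 did not pass (0.04). In GENCODE the HOXB3 gene spans HOXB4 and reaches into HOXB6, with antisense genes on the other strand, so the reads of these neighbours are uncertain.

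The HOXB members differed in level along the cluster. HOXB2 and HOXB3 were the highest, at 3.26 to 21.8 FPKM, HOXB1 and HOXB4 stood between 0.419 and 5.59 FPKM, and HOXB6, the most posterior member listed, stayed at or under 1.12 FPKM. HOXB2 passed in no comparison of the genotypes (-0.55, -0.10 and 0.13), nor did HOXB6. HOXB4 was higher at day 15 by 1.00 (adjusted p = 0.00209). In the libraries labelled knockout 4 of 5 HOXB members rose between days 3 and 7 (against 17.3% of all genes tested). Between days 7 and 15, 3 rose there (against 13.3%). In the wild type 3 rose in the first step (against 21.1%). In the second HOXB2 rose (against 25.5%) while HOXB1 and HOXB4 fell (against 26.8%).

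PBX2 and MEIS3 stood above every HOXB member in every library, on the FPKM scale. PBX3 gave 12.5 and 14.5 FPKM at day 3, 43.6 and 41.8 FPKM at day 7 and 21.99 and 21.1 FPKM at day 15 in the wild type. PBX3 in the libraries labelled knockout gave 17.2 and 18.97 FPKM, then 31.1 and 29.2 FPKM, then 34.4 and 26.2 FPKM. PBX3 was lower at day 7, at -0.49 (SE 0.14, adjusted p = 0.0196), and higher at day 15, at 0.46 (SE 0.14, adjusted p = 0.0298), with no overlap at either day. The call of day 7 ended without wild-type replicates 1 (adjusted p = 0.1) or 2 (adjusted p = 0.0701), without labelled knockout replicates 1 (adjusted p = 0.0512) or 2 (adjusted p = 0.0927), and scaled to nuclear genes (adjusted p = 0.0994). That of day 15 ended without wild-type replicates 1 (adjusted p = 0.0818) or 2 (adjusted p = 0.117), without labelled knockout replicate 1 (adjusted p = 0.161), and when day 15 was fitted alone (adjusted p = 0.132).

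PBX2 gave 152 and 142 FPKM at day 3, 136 and 140.01 FPKM at day 7 and 93.5 and 97.2 FPKM at day 15 in the wild type. PBX2 in the libraries labelled knockout gave 128 and 120.2 FPKM, then 158 and 137 FPKM, then 130.2 and 124 FPKM. PBX2, a broadly expressed relative, stood within 93.5 and 158 FPKM. The libraries labelled knockout stood below the wild type at day 3 and above it at day 15, and the groups overlapped at day 7. Its differences of -0.24 (SE 0.10, adjusted p = 0.116) at day 3 and 0.10 (SE 0.10, adjusted p = 0.476) at day 7 did not pass. That of day 15, 0.41 (SE 0.10, adjusted p = 0.0101), was lost without wild-type replicate 1 (adjusted p = 0.0586) and when day 15 was fitted alone (adjusted p = 0.0902). PBX4 stood between 3.34 and 8.41 FPKM and passed at no day.

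MEIS2 gave 9.63 and 10.6 FPKM at day 3, 50.3 and 48.5 FPKM at day 7 and 63.3 and 56.9 FPKM at day 15 in the wild type. MEIS2 in the libraries labelled knockout gave 24.6 and 22.3 FPKM, then 63.7 and 39.1 FPKM, then 121 and 104 FPKM. MEIS2 (chr15:36889204-37101299, minus strand), which acts in neural crest and outflow tract, was higher in both libraries labelled knockout at days 3 and 15, and at day 7 these libraries lay on either side of the wild type. The differences were 1.14 (SE 0.19, adjusted p = 0.00225), 0.02 (SE 0.19, adjusted p = 0.953) and 0.89 (SE 0.19, adjusted p = 0.00521). MEIS3 gave 54.4 and 49.8 FPKM at day 3, 35.7 and 39.5 FPKM at day 7 and 34.1 and 41.6 FPKM at day 15 in the wild type. MEIS3 in the libraries labelled knockout gave 33.1 and 34.04 FPKM, then 46.3 and 46.02 FPKM, then 32.9 and 33.8 FPKM. MEIS3, a hindbrain factor, was lower at day 3 by 0.62 (adjusted p = 0.00492) and passed neither at day 7 (0.29) nor at day 15 (-0.17). MEIS1 rose between days 3 and 7 in both genotypes, by 1.89 and 2.29, and did not pass between them at any day. Of 7 other TALE factors and cofactors in a list, TGIF2 was higher and TGIF1 lower at day 3. At day 7 TGIF1 was higher and PBXIP1, which binds PBX proteins, lower. TGIF1 and TGIF2 were higher at day 15. The shares of all genes tested were 9.51% higher and 14.1% lower at day 3, 22.1% and 19.9% at day 7, and 18.9% higher at day 15.

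**Figure D5:**
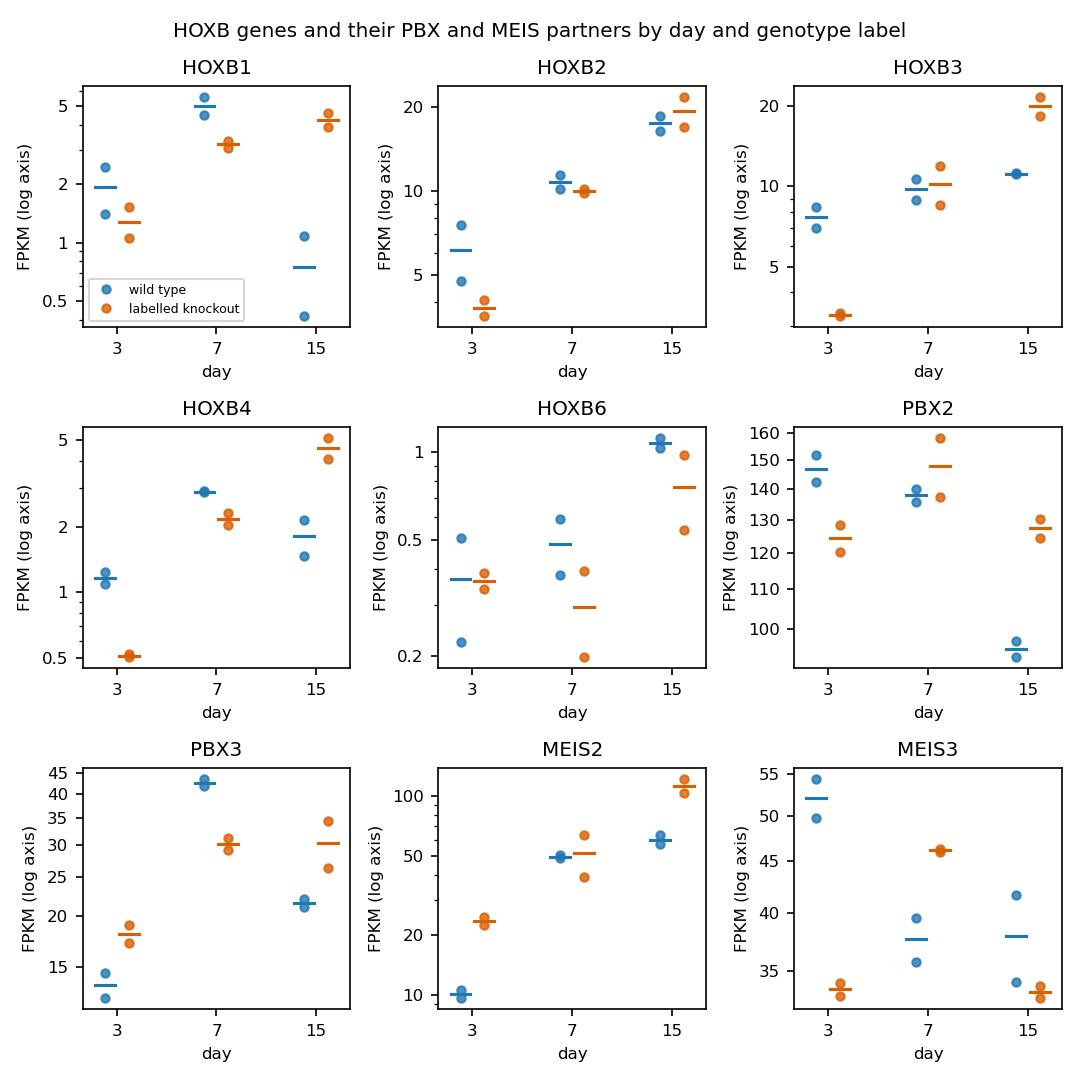
FPKM (y axes, log scale) of 5 HOXB genes, PBX2, PBX3, MEIS2 and MEIS3 by day (x axes) in wild-type (blue) and labelled knockout (orange) libraries. Points are libraries and lines are means of 2. HOXB1, HOXB3, HOXB4, PBX2, PBX3 and MEIS2 are higher in orange at day 15, and HOXB3 and MEIS3 are lower at day 3.

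POU factors join a POU-specific domain to a homeodomain. POU2F1 gave 12.8 and 12.7 FPKM at day 3, 19.3 and 27.3 FPKM at day 7 and 13.9 and 9.97 FPKM at day 15 in the wild type. POU2F1 in the libraries labelled knockout gave 29.5 and 21.6 FPKM, then 57.3 and 23.1 FPKM, then 30.5 and 12.7 FPKM. POU2F1, a ubiquitous octamer-binding factor and the most abundant POU member here, varied widely within groups, with labelled knockout replicate 1 above replicate 2 at each day. Its differences of 0.93 (SE 0.43, adjusted p = 0.145), 0.65 (SE 0.43, adjusted p = 0.254) and 0.70 (SE 0.43, adjusted p = 0.232) did not pass. POU3F2, a neural factor, stood at 2.23 and 1.76 FPKM in the day 7 libraries labelled knockout against 0.146 and 0.115 FPKM in the wild type, and under 1 FPKM in all other libraries. It passed the filter through that day 7 group alone, so its call there, 1 of the 5 higher at day 7, follows in part from the filter and is given no test here.

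In the wild type more members rose than fell between days 3 and 7, and more fell than rose between days 7 and 15. Between days 3 and 7, 22 of 38 tested passed (57.9%, against 43.7% of all genes tested), and 14 rose (36.8%, against 21.1%) and 8 fell (21.1%, against 22.6%). OTX1 rose by 2.26 and MEIS2 by 2.18, and LHX1 fell most, by 5.83. Between days 7 and 15, 19 passed (against 52.3% of all genes), and 16 fell (42.1%, against 26.8%) and 3 rose (7.89%, against 25.5%). Those 3 were PITX1, MSX1 and HOXB2, and HOXB1 (-1.81), IRX2 (-1.43) and IRX1 (-1.40) fell most. In the libraries labelled knockout 24 passed in the first step (63.2%, against 28.6%), where 19 rose (against 17.3% of all genes) and 5 fell (13.2%, against 11.4%). In the second, 20 passed (52.6%, against 28.4%), where 14 rose (36.8%, against 13.3%) and 6 fell (15.8%, against 15.1%). Rising members of that second step were led by MSX1 (3.09), MSX2 (1.68) and LHX2 (1.66). The comparisons of these steps share the day 7 libraries, and those with the genotypes at days 7 and 15 share libraries too. Scaling to nuclear genes moved the share of higher calls among all genes between days 7 and 15 of the wild type from 48.7% to 60.1%, with 5 members higher and 15 lower.

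Of 10 HOX inducers and retinoid genes tested, 1 was higher and 3 lower at day 3, and 3 higher and 2 lower at day 7. At day 15, 4 were higher and 0 lower. The medians were -0.11, -0.07 and 0.58 at the 3 days. For this list and the others in this paragraph, the shares of all genes tested were 9.51% higher and 14.1% lower at day 3. Those shares were 22.1% and 19.9% at day 7, and 18.9% and 16.2% at day 15. WNT3A, a ligand of posterior identity, was lower by 1.12 in the libraries labelled knockout than in the wild type at day 3. It was higher there by 2.53 at day 7 and by 3.56 at day 15. Of 14 Polycomb and trithorax genes, which silence or keep open HOX clusters, 4 were higher at day 3, 5 higher and 5 lower at day 7, and 2 (EZH2 and CBX2) higher at day 15. In a list of 53 other homeobox genes of regional identity, 23 were tested. At day 15, 11 of them were higher, LMX1B by 2.28, ALX4 by 1.78, PRRX1 by 1.68 and ALX1 by 1.17 among them. ISL1 and ISL2 were lower, and the median was 0.36. ALX4 reached 1 FPKM in day 15 libraries labelled knockout alone, and ISL2 in day 15 wild-type libraries alone. EMX1, also among the 11, reached it in libraries labelled knockout alone. These 3 genes were thus tested only through groups where they were high, so their calls follow in part from the filter. At days 3 and 7 that list had 4 higher each, and 5 and 6 lower, with medians of 0.00 and -0.12.

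Markers of other cell types moved over the same comparisons, and their part in the changes of the homeobox genes was not tested. Beside the counts of markers called, the shares of all genes tested were 9.51% higher and 14.1% lower at day 3. At day 7 these shares were 22.1% and 19.9%, and at day 15 18.9% and 16.2%. The 8 neural markers listed, of 12, summed to 350 to 359 FPKM in the wild type and 527 to 529 FPKM in the libraries labelled knockout at day 3, to 264 to 269 against 441 to 453 FPKM at day 7, and to 204 to 228 against 254 to 263 FPKM at day 15. Of the 7 tested, 6 were higher and 1 lower (TUBB3) at day 3, and 5 higher and 0 lower at day 7. At day 15, 4 were higher and 0 lower (SOX2, SOX3, FEZF1 and MAP2). ELAVL3, among those higher at days 3 and 7, reached 1 FPKM in libraries labelled knockout alone, so it was tested only through them. The 5 neural crest markers listed, of 7, summed to 50.5 to 55.6 against 22.4 to 24.6 FPKM at day 3, 53.2 to 53.6 against 33.5 to 41.5 FPKM at day 7, and 52.3 to 54.1 against 65.9 to 75.8 FPKM at day 15. In that list SOX10, TFAP2A and ETS1 were higher at day 15, and SNAI2 and TWIST1 were lower at days 3 and 7. Pluripotent cell markers (4 listed, of 6) summed to 1342 to 1353 FPKM in the wild type and 1593 to 1698 FPKM in the libraries labelled knockout at day 3, 695 to 714 against 948 to 1034 FPKM at day 7, and 98.1 to 104 against 362 to 405 FPKM at day 15. LIN28A was higher and TDGF1 lower at all 3 days, DPPA4 was higher at days 3 and 7 and DNMT3B at days 7 and 15. Endoderm markers (5 listed, of 8) summed to 133 to 138 against 36.2 to 39.3 FPKM at day 3, 110 to 126 against 36.0 to 37.3 FPKM at day 7, and 132 to 154 against 32.5 to 33.6 FPKM at day 15, and 3, 3 and 2 of them were lower and 0 higher. Endothelial markers (6 listed, of 7) summed to 49.9 to 52.8 against 59.9 to 72.5 FPKM at day 3 with 0 called, and to 104 to 119 against 56.9 to 65.8 FPKM at day 7 with 4 lower. At day 15 they summed to 74.5 to 76.2 against 65.4 to 75.9 FPKM, with ERG, PECAM1 and CDH5 higher and KDR lower. ERG reached 1 FPKM in day 7 wild-type and day 15 labelled knockout libraries alone, the groups where it was high. Paraxial mesoderm markers (5 listed, of 8) summed to 240 to 253 against 57.7 to 62.7 FPKM at day 3, 12.3 to 12.7 against 9.05 to 9.17 FPKM at day 7, and 7.61 to 8.69 against 6.38 to 8.58 FPKM at day 15, with 3, 1 and 1 lower and 1 higher at day 15. Epicardial and fibroblast markers (5 listed, of 8) summed to 52.5 to 52.9 against 28.1 to 32.8 FPKM at day 3. They summed to 447 to 470 against 283 to 357 FPKM at day 7, and 128 to 148 against 126 to 171 FPKM at day 15. Of the 3 tested, COL1A1 was lower at days 3 and 7, and PDGFRA was lower at day 3 and higher at day 15. TCF21 and UPK3B were under 1 FPKM in all libraries. Intermediate mesoderm and kidney markers (2 listed, of 5) summed to 4.04 to 6.45 against 1.58 to 3.59 FPKM at day 3. They summed to 93.4 to 99.2 against 37.2 to 42.2 FPKM at day 7, and 29.2 to 34.2 against 17.8 to 29.9 FPKM at day 15. GATA3 was lower at days 3 and 7, and OSR1 was called at no day. Some sums were mostly 1 gene, and wild-type examples follow. At day 3 these were DLL3 for paraxial mesoderm (214 and 230 FPKM) and KDR for the endothelial list (50.4 and 48.8 FPKM). At day 7 they were COL1A1 for the epicardial list (405 and 385 FPKM) and GATA3 for the kidney list (90.2 and 95.3 FPKM). At day 15 APOA1 held 118 and 138 FPKM of the endoderm sum, and KDR 63.1 and 68.8 FPKM of the endothelial sum. LIN28A held most of the pluripotent sum at each day in both genotypes. At day 15 it gave 60.7 and 64.3 FPKM in the wild type and 366 and 333 FPKM in the libraries labelled knockout, so the difference of that sum was mostly LIN28A. Every listed marker was above 0 in all 12 libraries, as were all 17096 genes.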

How the data were processed

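Each of the 12 libraries has a deposited table of gene symbols with values, read here as FPKM, made by the authors. That unit is an inference from the values, since no label or header gives it. Per the submitters' processing notes BWA and hg38 (GRCh38) were used. The program that computed the FPKM values, its annotation, strand setting and filters were not given in the sources used. Of the symbols, 22 had become dates and 18 rows hold repeated symbols, and none of these is named. Results of 3 members are not reported here by name. The 40 members were placed in GENCODE release 29.

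Genes reaching 1 FPKM in 2 or more libraries were kept (16295 tested, 801 left out), and log2(FPKM + 1) was fitted with limma 3.58.1 in R 4.3.3, with trend, as 6 group means on 12 libraries. The 9 contrasts had two-sided p-values with Benjamini-Hochberg adjustment across the genes kept and a threshold of 0.05. The code was tested on simulated data. Values with every library are given for members reaching a mean of 5 FPKM in a group and passing in a genotype comparison, at most 5 a family, or else the highest of a family. Other members named were chosen after their values were seen. The members and lists were chosen with earlier results of these data known. Alternatives were 2 scalings, 2 filters, another pseudocount, no trend, fits on the groups compared alone, the replicate number as a block, and leaving out each library.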

Additional observations from a re-analysis of the deposited data

Results flagged for a closer look

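For the members described with the value of every library, the genotype difference was compared between neighbouring days with limma, and the adjusted p-values are over all 16295 genes tested. Between days 3 and 7 the difference moved upward for SIX3 by 1.72 (SE 0.30, adjusted p = 0.00336), PAX2 by 1.38 (SE 0.33, adjusted p = 0.0145), IRX3 by 1.15 (SE 0.24, adjusted p = 0.00867), HOXB3 by 1.05 (SE 0.26, adjusted p = 0.0166) and MEIS3 by 0.91 (SE 0.17, adjusted p = 0.00497). It moved downward for MEIS2, at -1.12 (SE 0.27, adjusted p = 0.0165), and for PBX3, at -0.89 (SE 0.20, adjusted p = 0.0129).

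Between days 7 and 15 the upward moves were largest among these members for MSX1, at 2.14 (SE 0.20, adjusted p = 6.91e-05), and HOXB1, at 2.14 (SE 0.35, adjusted p = 0.00134). DLX5 moved by 1.99 (SE 0.32, adjusted p = 0.00142), MSX2 by 1.79 (SE 0.22, adjusted p = 0.000322), OTX1 by 1.75 (SE 0.28, adjusted p = 0.00132) and IRX3 by 1.56 (SE 0.24, adjusted p = 0.00108). IRX5 moved by 1.36 (SE 0.29, adjusted p = 0.00573), SIX4 by 1.35 (SE 0.26, adjusted p = 0.00363) and PBX3 by 0.95 (SE 0.20, adjusted p = 0.00586). Smaller upward moves were found for MEIS2, at 0.87 (SE 0.27, adjusted p = 0.032), HOXB3, at 0.74 (SE 0.26, adjusted p = 0.0475), IRX1, at 0.68 (SE 0.22, adjusted p = 0.0353), and IRX2, at 0.68 (SE 0.21, adjusted p = 0.0325). PAX2, which passed the filter through libraries labelled knockout alone, moved the other way, at -0.999 (SE 0.33, adjusted p = 0.0388). MEIS2, PBX3 and PAX2 thus moved in opposite directions over the 2 steps, which share the day 7 libraries.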

How the results depend on the processing

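Counts of members called moved by over 1.5 times in few settings. A filter at 5 FPKM tests 23 members in place of 38, so its counts are lower for that reason too. They were 7 of 23 at day 7 (in place of 11 of 38) and 14 of 23 at day 15 (22 of 38). Between days 7 and 15 they were 12 for the wild type (19) and 12 for the libraries labelled knockout (20). For the difference of effects between days 15 and 7 the count was 13 (22). Over all genes this filter called 5873 of 12460 at day 7 and 5132 at day 15, in place of 6852 and 5723 of 16295. In fits on the groups compared alone, the labelled knockout count between days 7 and 15 was 13. Without 1 library the counts were 9 to 12 at day 3 (13), 7 to 9 at day 7 and 19 to 24 at day 15. They were 19 to 20 and 15 to 19 for the wild-type steps, 16 to 18 and 16 to 19 for the labelled knockout steps, and 5 to 10 and 16 to 20 for the differences of effects. The lowest of these at day 7 (7) and for the effects between days 7 and 3 (5) came without day 7 wild-type replicate 1. Day 15 libraries labelled knockout varied most (pooled SD of 0.323 on the log2 scale, against 0.208 to 0.267).

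Of 711 checks of single genotype differences, 666 kept direction and call, 28 lost the call, 9 gained it and 8 changed sign, all 8 in differences that had not passed. Without 1 library these ranges crossed 0: DLX5 at day 3 (-0.0553 to 0.3515), HOXB3 (-0.1766 to 0.2605), MEIS2 (-0.3300 to 0.3625) and PBX2 (-0.0043 to 0.1972) at day 7, and MSX2 at day 15 (-0.0506 to 0.2030). With median-ratio rescaling MEIS2 at day 7 became -0.0065. The 9 gained calls were of PBX3 at day 3 (by 2 scalings), MEIS3 and PBX2 at day 7 scaled to nuclear genes, PITX1 at day 7 and POU2F1 at day 3 in fits of the day alone, and LHX1 at day 15 and POU2F1 at days 7 and 15 without labelled knockout replicate 2. The cause of these changes was not tested.

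With the replicate number as a block, 13, 11 and 22 members were called at days 3, 7 and 15, the counts of the fit without the block, and no call of a described member changed. The labels do not say that the numbers pair libraries. Deviations of same-numbered libraries correlated at 0.103 to 0.206 between the labelled knockout groups, at -0.035 to 0.017 between the wild-type groups and at -0.121 to 0.037 between the genotypes of a day. The labelled knockout steps gave 24 and 20 calls with the block, as without it.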
